A study of Rattus norvegicus with 6 samples.

Results

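The genes described here build the primary cilium or carry the Hedgehog signal through it. There are 56 of them, taken by gene symbol from a list of 49 cilium genes and 7 Hedgehog genes. The deposited table holds 17273 genes, and 54 of the 56 have a row in it. Ift172 and Tctn2 had none under any annotated name and were not analysed here. Of the 54, 52 passed the filter on low counts and were tested among 13747 genes, and Tctn3 and Hhip did not pass.

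Nucleus pulposus cells, from the gel-like core of the intervertebral disc, were profiled by RNA sequencing. The lactate group was 3 libraries of cells given 10 mM lactate for 8 h, and the control group was 3 libraries of untreated cells. Both groups were wild type, male and of the Sprague Dawley strain, and were grown in DMEM with 10% fetal bovine serum. The labels leave out the animals' age, the passage, the pH of the medium and the form of the lactate, acid or salt. Nor do they tie the libraries to cultures or animals of their own, so each p-value measures no more than the spread between libraries, and that spread may be technical. In bulk RNA, fewer cells of a type and less RNA per cell cannot be told apart.

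The primary cilium is a single, immotile antenna that most vertebrate cells grow from the older centriole when they stop dividing. Kinesin motors carry trains of the intraflagellar transport complex B (IFT-B) to the tip, the ciliary dynein and complex A (IFT-A) bring them back, and the BBSome rides on these trains to take membrane proteins out. The transition zone at the base acts as a gate. In vertebrates Hedgehog signalling runs through this organelle: Patched keeps Smoothened out of it until a ligand binds, and Smoothened then lets Gli transcription factors escape their inhibitor Sufu. The nucleus pulposus derives from the notochord, a source of Sonic hedgehog in the embryo, and disc cells carry primary cilia.

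Cilium genes are known to share promoter sites for RFX transcription factors, and Hedgehog target genes sites for Gli factors, so promoters of the members were searched for both. RefSeq promoters on the rat assembly GRCr8, 250 bases before to 50 after each start, were at hand for 45 of the 56 members (46 entries, as Ttc8 had 2). The RFX half-site GTTGCCA, on either strand, was in 12 of the 46 (26.1%) and in 1525 of all 33469 promoters (4.56%). Below are windows of 40 bases around it for 10 members measured here, written 5′ to 3′ on the strand of the gene with the half-site or its reverse complement TGGCAAC in capitals. They are shown so that the shared letters can be seen beside the calls given further on.
Ift81: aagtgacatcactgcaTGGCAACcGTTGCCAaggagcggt
Ift88: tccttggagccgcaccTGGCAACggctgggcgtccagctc
Wdr35: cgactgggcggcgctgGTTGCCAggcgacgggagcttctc
Arl6: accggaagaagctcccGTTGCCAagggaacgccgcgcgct
Bbs1: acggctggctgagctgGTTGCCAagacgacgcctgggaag
Mks1: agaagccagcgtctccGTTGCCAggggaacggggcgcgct
Ift27: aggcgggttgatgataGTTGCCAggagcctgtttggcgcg
Kif3a: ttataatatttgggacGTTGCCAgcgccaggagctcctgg
Dync2li1: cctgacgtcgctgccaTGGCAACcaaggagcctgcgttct
B9d1: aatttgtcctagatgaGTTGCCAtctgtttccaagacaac
In GRCr8 these windows lie at chr12:39618594-39618633 (+) for Ift81, chr15:35688936-35688975 (+) for Ift88, chr6:37490545-37490584 (+) for Wdr35, chr11:54181329-54181368 (+) for Arl6, chr1:211633429-211633468 (−) for Bbs1, chr10:73153149-73153188 (+) for Mks1, chr7:111634895-111634934 (−) for Ift27, chr10:38226521-38226560 (+) for Kif3a, chr6:15778158-15778197 (−) for Dync2li1 and chr10:46686128-46686167 (+) for B9d1. For the longer RFX site with both half-sites, 1 spelling was searched (GT, 4 free bases, AT, 3 free bases, AAC, either strand). It was in 1 member promoter, that of Tmem216, and in 923 promoters of all (2.76%). That spelling fixes the AT and the spacing, so longer sites spelled otherwise were not counted. The windows of Mks1 and Arl6, where AAC also follows the half-site, did not match it. A match is a description of letters and not of binding. For Gli, the motif GACCACCCA on either strand was in 129 of all promoters (0.385%) and in 1 of the 46. That 1 belongs to Ptch1, which encodes the Hedgehog receptor and is a textbook Gli target, and its promoter follows with the reverse complement of the motif in capitals, at position −172 from the start (chr17:1555321-1555620, plus strand).
Ptch1: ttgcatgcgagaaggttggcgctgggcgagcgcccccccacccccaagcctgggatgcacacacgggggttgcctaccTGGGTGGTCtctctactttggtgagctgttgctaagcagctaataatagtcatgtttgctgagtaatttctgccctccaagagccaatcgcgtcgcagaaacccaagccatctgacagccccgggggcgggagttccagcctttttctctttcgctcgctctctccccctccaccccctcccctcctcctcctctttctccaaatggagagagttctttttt
The shorter core CCACCC, which lies within that motif, was in 20 of the 46 (43.5%) and in 29.4% of all promoters.

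Most members were lower after lactate. Of the 52 tested, 36 fell and 5 rose with TMM scaling (edgeR quasi-likelihood test, adjusted p under 0.05 over all 13747 genes), and 11 were not called. Calls in either direction took in 66% of all genes. Of all tested, 34.6% were lower and 31.4% higher, so the members' 69.2% lower and 9.62% higher are to be read against those shares. The 5 that rose were Ptch1, the intraflagellar transport gene Ift20, the ciliary GTPase gene Arl3, and the transition zone genes Tctn1 and Tmem231. A fall of at least 2-fold was seen in 24 members and a rise of that size in 2, where 22.5% and 18.1% of all genes had one. For 8 members the fall was at least 4-fold, against 8.45% of all genes. Lactate libraries lay wholly below control libraries for 36 members and wholly above them for 7, where 38.4% and 33.7% of all genes did so (72.2% in all).

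**Figure D1:**
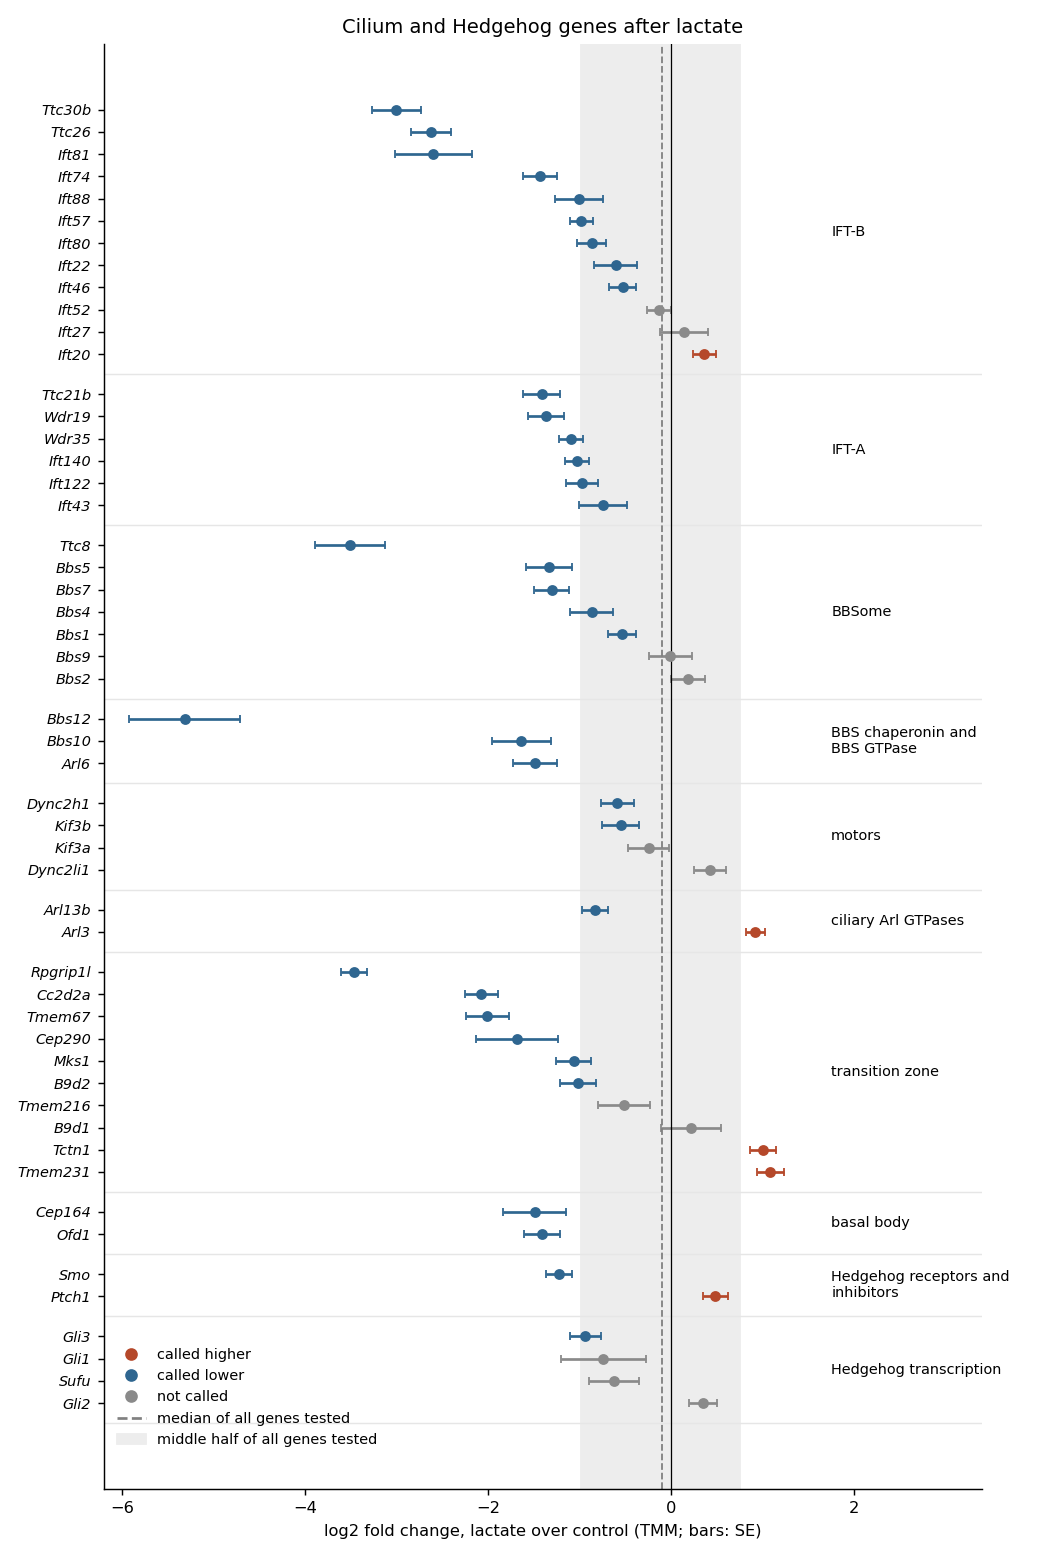
Log2 fold change of lactate over control with its SE (horizontal axis) for each of the 52 tested members, grouped by role, as points coloured by call, with the median and middle quartiles of all genes shaded. Most points lie left of 0, with Bbs12 lowest at −5.32 and Tmem231 highest at 1.09.

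The median log2 fold change of the 52 members was −0.95 (quartiles −1.42 and −0.45), against −0.10 (quartiles −0.98 and 0.76) for all genes tested. Levels here are CPM, counts scaled to a common library total with TMM factors, a scaling that assumes that the bulk of genes do not change. Summed over members, the level was 510.5, 510.2 and 515.4 CPM in the lactate libraries 1, 2 and 3, against 743.2, 816.1 and 793.2 CPM in the control libraries 1, 2 and 3. The groups did not overlap, and the lactate sums lay within a few CPM of each other. As a share of all counts, without TMM, members took 368.1, 358.1 and 415.2 unscaled CPM in lactate libraries, against 1012, 1080 and 1074 unscaled CPM in control libraries.

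The scaling sets how many members count as higher. TMM factors were 0.7214, 0.7020 and 0.8060 in lactate libraries and 1.363, 1.327 and 1.355 in control libraries, and collagen mRNA moved with them. Col1a1, a type I collagen gene, averaged 124372 ± 22630 CPM in lactate and 31785 ± 2955 CPM in control libraries (SD, n = 3 each; log2 fold change 1.97 ± 0.16, edgeR adjusted p = 1.2e-05). With library totals in place of TMM, 47 members were called lower and 0 higher, where 61.8% of all genes were lower and 12.5% higher. At an unadjusted p under 0.05 the count of members higher was 0, and limma-trend on the deposited FPKM called 0 higher as well, with 0 at an unadjusted p under 0.05. With library totals the median of all genes moved to −0.96 and that of the members to −1.81. The members thus lay 0.85 log2 units below all genes under both scalings. A change of scaling moves all genes by nearly the same amount, so this gap could hardly differ and is no separate check. None of the 5 calls of a rise held with library totals, and Ptch1 and Ift20 then had negative fold changes. On the deposited FPKM, whose totals are not TMM-scaled, 48 members were lower on log2(FPKM + 1) and 47 on log2(FPKM + 0.1), where 63.7% and 63.6% of all genes were. With other count-based scalings 35 members were lower with RLE factors (all genes 33.3%), 37 with upper-quartile factors (39.6%) and 35 with DESeq2 (34.1%). Members higher numbered 7 with RLE factors (all genes 32.5%), 3 with upper-quartile factors (27.5%) and 7 with DESeq2 (33.3%). With 1 library left out, lower calls numbered from 30 without control replicate 3 (all genes 29.9%) to 37 without lactate replicate 3 (all genes 35%).

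Transcript length and level also moved with the fold changes. Long transcripts were lower after lactate: among all genes the median log2 fold change was 0.46 in the shortest 20% and −0.52 in the longest 20%, and 17 of the 52 members were in that longest bin. There 13 of 17 members fell, against 49.5% of all genes of the bin. In the shortest bin 2 of 5 members fell, against 17.9% of all genes. By level, in bins of 20% of genes, 22 members were in the second bin from below and 23 in the middle bin, where 45.5% and 42.2% of all genes fell, and 16 and 17 of the members did. With a smooth trend on length taken out, 32 members were lower and 5 higher, where all genes gave 32.1% and 31.8%, and the members' median was −0.71. With trends on length and level both taken out, 28 were lower and 8 higher, where all genes gave 33.4% and 25.8%, and the median was −0.50 (all genes −0.11). Removal of both trends ended the lower calls of Ift22, Ift80, Ift88, Bbs1, Bbs4, Kif3b, Cep290 and Dync2h1 and the higher call of Ift20, and Gli2, Bbs2, Dync2li1 and Dync2h1 then passed as higher. The members' fall was thus smaller with the trends removed, and their share of falls stayed above that of all genes in both. The part of RNA quality in the length trend was not tested.

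**Figure D2:**
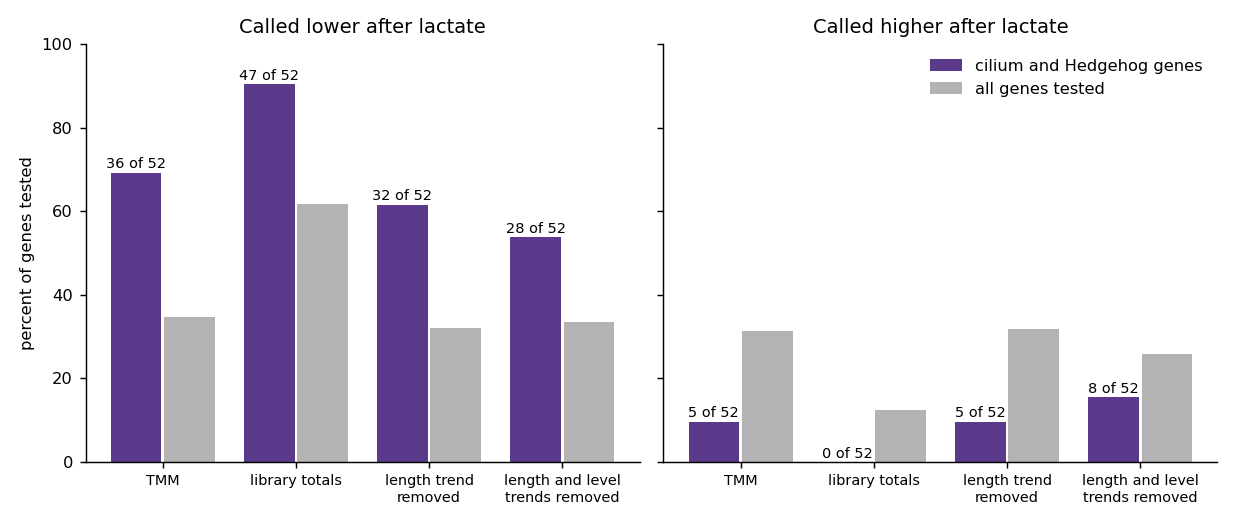
Percent of genes called lower (left panel) and higher (right panel) among the 52 tested members and among all genes tested, as bars, for TMM scaling, library totals and removal of trends on length or on length and level. Members are above all genes in each pair for lower calls, from 28 to 47 of 52, and below all genes in each pair for higher calls, from 0 to 8 of 52.

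In IFT-B, which carries cargo toward the tip, 9 of 12 tested members fell, 1 rose and 2 were not called. The median log2 fold change was −0.92, and 75% were lower beside 34.6% of all genes. The deepest falls were in Ttc30b and Ttc26, which encode tetratricopeptide subunits of the complex. Ttc30b had 0.726, 1.22 and 0.734 CPM in the lactate libraries, against 7.07, 7.56 and 6.83 CPM in the control libraries (log2 fold change −3.01 ± 0.27, edgeR adjusted p = 2.05e-05). Ttc26 had 1.86, 3.01 and 1.89 CPM in the lactate libraries, against 12.8, 14.1 and 14.6 CPM in the control libraries (log2 fold change −2.62 ± 0.22, edgeR adjusted p = 1.64e-05). In both genes the 3 lactate values lay far below every control value. Ttc30b has a near-identical copy, Ttc30a1, which was lower too (log2 fold change −3.75 ± 0.56, edgeR adjusted p = 0.00042), and reads may be shared between them.

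Ift57, a subunit of the outer part of IFT-B, had 14.6, 14.4 and 12.5 CPM in the lactate libraries, against 26.2, 29.0 and 26.8 CPM in the control libraries (log2 fold change −0.98 ± 0.13, edgeR adjusted p = 0.000161). Its values were close within each group, and the groups were apart. Ift81 and Ift74, whose proteins pair to bind tubulin, had fold changes of −2.60 ± 0.42 and −1.43 ± 0.18 (edgeR adjusted p = 0.000665 and 0.000163). The subunit genes Ift88, Ift80 and Ift46 fell by 1.01, 0.87 and 0.53 on the log2 scale. Ift46 overlaps Arcn1 in GRCr8, which rose (log2 fold change 0.44 ± 0.09, edgeR adjusted p = 0.00251), and its call was lost without control replicate 2 or 3 (edgeR adjusted p = 0.0587 and 0.0513). Ift22, a small GTPase-like subunit, was called at −0.60 ± 0.23 (edgeR adjusted p = 0.048) and lost the call when any library but control replicate 1 was left out (edgeR adjusted p = 0.0736 to 0.225). Ift52 and Ift27 were not called, at −0.13 ± 0.13 and 0.14 ± 0.26.

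Ift20, which links the Golgi apparatus to the cilium, was the IFT-B gene that rose with TMM factors. It had 23.9, 23.8 and 22.4 CPM in the lactate libraries, against 16.2, 20.2 and 18.0 CPM in the control libraries (log2 fold change 0.37 ± 0.13, edgeR adjusted p = 0.033). The groups did not overlap, but the gap was small. Left-out libraries ended the call in 4 of 6 cases, namely lactate replicates 1 and 2 and control replicates 1 and 3 (edgeR adjusted p = 0.0656 to 0.0935), and with library totals and on log2(FPKM + 1) it was called lower, at −0.49 and −0.47 (adjusted p = 0.00976 by edgeR and 0.00381 by limma-trend).

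In IFT-A, which brings trains back from the tip and admits membrane receptors, all 6 tested members fell (median −1.06), beside 34.6% of all genes. Their median length percentile was 83.35, within the longest bin, where 49.5% of all genes fell. With the length trend removed 6 were still called lower, where 32.1% of all genes were. Wdr35 had 12.5, 11.0 and 10.2 CPM in the lactate libraries, against 23.5, 24.4 and 24.0 CPM in the control libraries (log2 fold change −1.10 ± 0.13, edgeR adjusted p = 0.000113). Ift140 had 8.75, 9.74 and 8.53 CPM in the lactate libraries, against 17.9, 18.2 and 19.0 CPM in the control libraries (log2 fold change −1.03 ± 0.13, edgeR adjusted p = 0.00016). Wdr19 had 3.81, 3.95 and 2.80 CPM in the lactate libraries, against 9.14, 9.34 and 8.68 CPM in the control libraries (log2 fold change −1.37 ± 0.19, edgeR adjusted p = 0.000302). Each of these 3 genes was lower in every lactate library than in any control library. Ttc21b and Ift122 fell by 1.41 and 0.97 on the log2 scale, and Ift43 by 0.74, a call that was lost without control replicate 2 or 3 (edgeR adjusted p = 0.0975 and 0.0942). In GRCr8 Ift140 overlaps Tmem204, which rose (log2 fold change 0.45 ± 0.17, edgeR adjusted p = 0.0398). Counting by strand is not stated, so reads of the overlapping pair may be mixed.

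In the BBSome, the coat that takes membrane proteins out of the cilium, 5 of 7 tested members fell and 2 were not called (median −0.87). That is 71.4% lower, beside 34.6% of all genes. Ttc8, also known as BBS8, had 0.862, 1.18 and 0.350 CPM in the lactate libraries, against 7.70, 10.3 and 8.72 CPM in the control libraries (log2 fold change −3.51 ± 0.38, edgeR adjusted p = 6.59e-05). Bbs7 had 10.4, 7.29 and 6.71 CPM in the lactate libraries, against 20.0, 18.4 and 21.9 CPM in the control libraries (log2 fold change −1.30 ± 0.19, edgeR adjusted p = 0.000349). Bbs5, whose protein binds phosphoinositides, had 1.77, 1.51 and 1.33 CPM in the lactate libraries, against 4.57, 3.64 and 3.37 CPM in the control libraries (log2 fold change −1.33 ± 0.25, edgeR adjusted p = 0.00163). In Ttc8 the lactate libraries were a small fraction of the control ones, while in Bbs7 and Bbs5 they lay closer. Bbs4 fell by 0.87 and Bbs1 by 0.54 on the log2 scale. The Bbs1 call was lost without control replicate 3 or lactate replicate 1 (edgeR adjusted p = 0.051 and 0.0524) and with the length trend removed (−0.21). Bbs2 and Bbs9 were at 0.18 ± 0.18 and −0.01 ± 0.23 and were not called. Without lactate replicate 3 Bbs2 passed as higher (log2 fold change 0.37, edgeR adjusted p = 0.042), and with library totals it passed as lower (−0.69, edgeR adjusted p = 0.00494).

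The chaperonin-like genes Bbs10 and Bbs12, needed to assemble the BBSome, and Arl6, the GTPase that brings it to membranes, all fell (3 of 3, median −1.64). Among all genes 34.6% did. Bbs12 was barely detected after lactate, with 0, 3 and 4 counts in the lactate libraries, against 193, 264 and 123 counts in the control libraries (log2 fold change −5.32 ± 0.60, edgeR adjusted p = 8.25e-05). These are 0, 0.141 and 0.140 CPM in the lactate libraries, against 4.22, 5.11 and 2.61 CPM in the control libraries. A count of 3, the limit that 0 allows for counting error, stands for 0.136 CPM in lactate replicate 1, and the fitted fold change of so low a gene depends on the prior count. Arl6 had 1.86, 2.63 and 1.96 CPM in the lactate libraries, against 6.85, 5.02 and 6.19 CPM in the control libraries (log2 fold change −1.49 ± 0.24, edgeR adjusted p = 0.000606). Bbs10 had 0.771, 1.79 and 1.71 CPM in the lactate libraries, against 4.64, 4.26 and 4.48 CPM in the control libraries (log2 fold change −1.64 ± 0.32, edgeR adjusted p = 0.00197). Neither gene had a lactate library within the control range.

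Of 4 tested motor genes, 2 fell and 2 were not called (median −0.40), which is 50% lower beside 34.6% of all genes. Dync2h1, the heavy chain of the ciliary dynein, had 12.7, 12.4 and 8.56 CPM in the lactate libraries, against 15.1, 17.9 and 17.5 CPM in the control libraries (log2 fold change −0.59 ± 0.18, edgeR adjusted p = 0.0187). It is the longest member by transcript length measured from counts over FPKM, at the 99.8th percentile of all genes, and with the length trend removed its fold change was 0.22, not called. Its call was also lost without control replicate 2 or 3 (edgeR adjusted p = 0.0626 and 0.0604). Kif3b, a kinesin motor subunit, had 23.1, 18.9 and 34.8 CPM in the lactate libraries, against 39.3, 37.0 and 36.5 CPM in the control libraries (log2 fold change −0.55 ± 0.21, edgeR adjusted p = 0.0414). Lactate replicate 3 lay close to the controls, and the call was lost when any library other than it was left out (edgeR adjusted p = 0.0772 to 0.122). Its partner Kif3a was at −0.24 ± 0.22, not called, and passed as lower without lactate replicate 3 (−0.51, edgeR adjusted p = 0.0151). Dync2li1, a light intermediate chain of the dynein, was at 0.43 ± 0.17 with groups that did not overlap (edgeR adjusted p = 0.0562). It passed as higher without lactate replicate 3 (0.56, edgeR adjusted p = 0.0162), and passed as lower with library totals (−0.44, edgeR adjusted p = 0.0403).

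Of the ciliary Arl GTPases, Arl13b fell and Arl3 rose with TMM factors, a rise not called with library totals. Arl13b, a cilium membrane GTPase that activates Arl3, had 7.21, 8.56 and 7.30 CPM in the lactate libraries, against 13.9, 13.4 and 13.7 CPM in the control libraries (log2 fold change −0.83 ± 0.14, edgeR adjusted p = 0.000901). Arl3, which releases lipid-modified cargo inside the cilium, had 62.8, 60.0 and 63.4 CPM in the lactate libraries, against 33.7, 34.3 and 30.2 CPM in the control libraries (log2 fold change 0.92 ± 0.10, edgeR adjusted p = 6.74e-05). Neither gene overlapped between groups. With library totals the log2 fold change of Arl3 was 0.07 (edgeR adjusted p = 0.636), and its deposited length-scaled level was 32.8 ± 3.28 FPKM in lactate and 31.6 ± 1.96 FPKM in control libraries.

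In the transition zone, 6 of 10 tested members fell, 2 rose and 2 were not called (median −1.04). That is 60% lower and 20% higher, beside 34.6% and 31.4% of all genes. Rpgrip1l, a scaffold at the base of this gate, had 8.12, 9.31 and 7.23 CPM in the lactate libraries, against 84.0, 87.2 and 100 CPM in the control libraries (log2 fold change −3.46 ± 0.14, edgeR adjusted p = 1.28e-06). The control level was 11.0 times the lactate level, and per length it was the highest transition zone member in each control library, at 0.827 ± 0.0523 FPKM in lactate and 16.8 ± 1.66 FPKM in control libraries. Cc2d2a, needed to build the gate, had 2.99, 2.49 and 2.97 CPM in the lactate libraries, against 10.5, 12.9 and 12.3 CPM in the control libraries (log2 fold change −2.08 ± 0.18, edgeR adjusted p = 1.7e-05). Tmem67, a membrane protein of the gate, had 1.41, 1.36 and 1.89 CPM in the lactate libraries, against 5.62, 7.32 and 5.90 CPM in the control libraries (log2 fold change −2.01 ± 0.24, edgeR adjusted p = 0.000109). All 3 lost most of their control level in each lactate library. Mks1 and B9d2 fell by 1.07 and 1.02 on the log2 scale. Cep290, which spans from microtubules to membrane, was more uneven, with 2.81, 0.847 and 4.26 CPM in the lactate libraries, against 8.44, 8.51 and 8.74 CPM in the control libraries (log2 fold change −1.68 ± 0.45, edgeR adjusted p = 0.0095), and was not called with the length trend removed (−1.08, edgeR adjusted p = 0.0603).

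Tmem231 and Tctn1, partners in the same membrane module, rose with TMM factors and were not called with library totals. Tmem231 had 44.5, 44.8 and 45.4 CPM in the lactate libraries, against 22.9, 24.0 and 16.5 CPM in the control libraries (log2 fold change 1.09 ± 0.15, edgeR adjusted p = 0.000259). Tctn1 had 22.7, 25.2 and 19.4 CPM in the lactate libraries, against 10.7, 11.7 and 11.0 CPM in the control libraries (log2 fold change 1.01 ± 0.14, edgeR adjusted p = 0.000279). No lactate library was within the control range in either. With library totals they were at 0.23 and 0.14 (edgeR adjusted p = 0.232 and 0.353). Tctn1 overlaps Hvcn1 in GRCr8, a gene under the filter here. Tmem216 and B9d1 were not called, at −0.52 ± 0.28 and 0.22 ± 0.33. B9d1 overlaps Epn2, which rose (log2 fold change 2.14 ± 0.10, edgeR adjusted p = 1.81e-06). Without lactate replicate 2 Tmem216 passed as lower (−0.80, edgeR adjusted p = 0.0356). Tctn3 had 42 counts in lactate replicate 2 and 0 in the other 5 libraries, so it was not tested. In the authors' deposited table it has a log2 fold change of 7.54 and an adjusted p of 0.0055, a value that rests on that library alone.

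Both basal body members fell, beside 34.6% of all genes, and their median length percentile was 81.65. Ofd1, a centriole protein that limits centriole length, had 7.35, 4.84 and 5.00 CPM in the lactate libraries, against 13.9, 16.2 and 15.6 CPM in the control libraries (log2 fold change −1.41 ± 0.19, edgeR adjusted p = 0.000254). Cep164, which builds the appendages that dock the centriole to the membrane, had 7.03, 5.13 and 14.1 CPM in the lactate libraries, against 19.4, 25.5 and 29.2 CPM in the control libraries (log2 fold change −1.49 ± 0.34, edgeR adjusted p = 0.00455). Cep164 varied more between lactate libraries than Ofd1 did, and neither gene overlapped between groups.

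**Figure D3:**
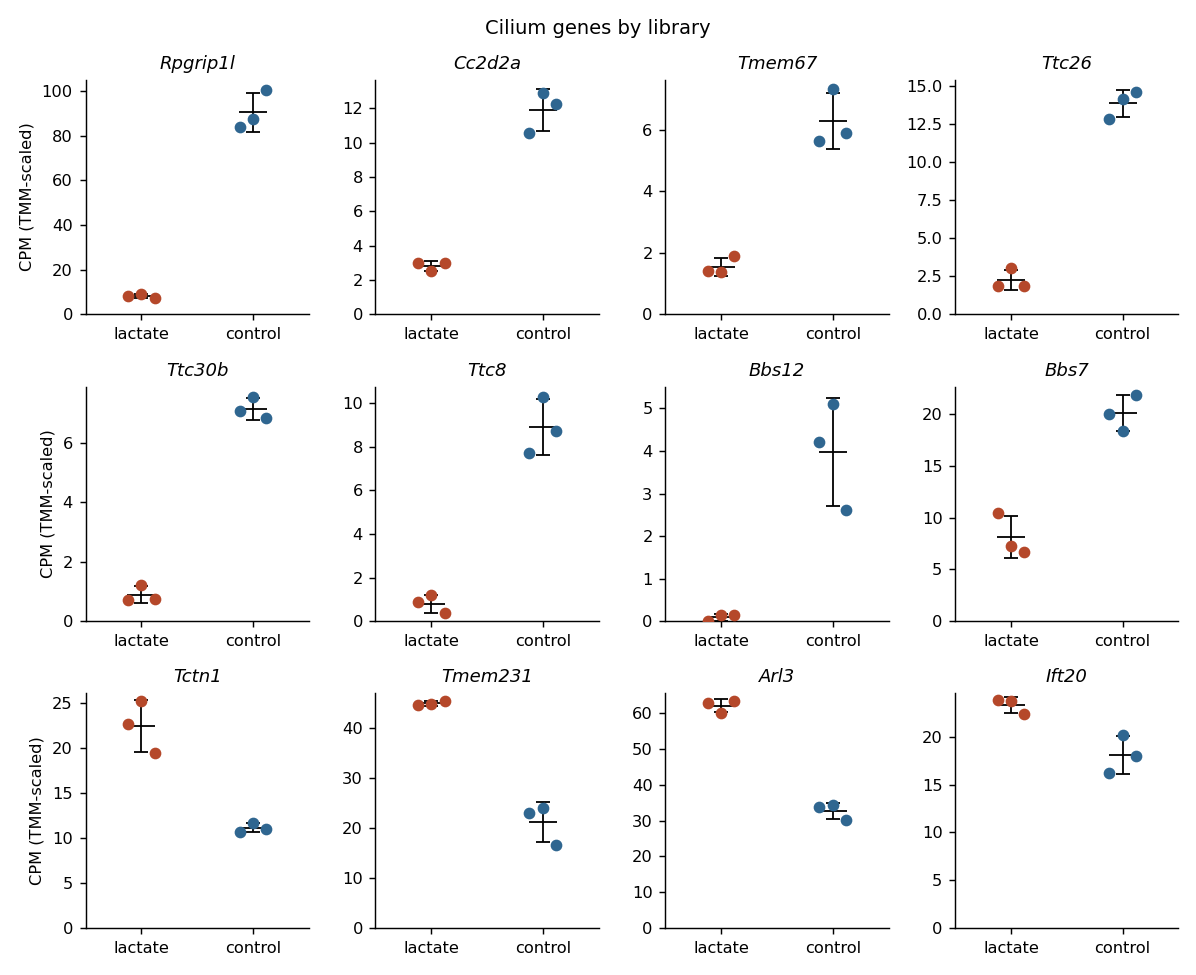
Level in CPM (vertical axis from 0, TMM-scaled) of 12 cilium members, lactate libraries left of control libraries, one point a library with the mean and SD (n = 3). Lactate points lie below control points in the 8 upper panels and above them for Tctn1, Tmem231, Arl3 and Ift20.

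Because subunits of a complex work together, their levels were set beside each other within each library, per length, as the ratio of the highest to the lowest FPKM. In IFT-B this ratio was 76.8, 44.8 and 69.6 in lactate libraries, against 6.15, 6.1 and 6.25 in control libraries. The highest subunit was Ift20 in all 6 libraries, and the lowest in lactate was Ttc30b. In the BBSome the ratio was 11.3, 10.4 and 20.2 in lactate libraries, against 2.39, 2.4 and 3.09 in control libraries. In the transition zone it was 46.4, 143 and 34.1 in lactate libraries, against 11.6, 12 and 13.6 in control libraries. Bbs9 or Bbs2 led and Ttc8 trailed the BBSome after lactate, where Bbs7 led in controls, and Tmem231 took the lead of the transition zone from Rpgrip1l. In IFT-A the ratio was 11.6, 11.1 and 8.2 in lactate libraries, against 5.56, 7.26 and 7.6 in control libraries. Every lactate library was more uneven than every control library in all 4 groups, with the narrowest gap in IFT-A, where Ift43 was highest and Wdr19 lowest in each library. Ratios of FPKM within a library do not depend on the scaling between libraries, but they may carry the length trend, which was not tested here. Ift43 and Wdr19 were at length percentiles 9.3 and 85.7 and Ift20 and Ttc30b at 16.3 and 59.8, while Bbs9 and Ttc8 were closer, at 45.1 and 52.7. The IFT-B ratios in lactate replicates 1, 2 and 3 rest on 16, 26 and 21 counts of Ttc30b, which may share reads with Ttc30a1. Those of the BBSome in the same libraries rest on 19, 25 and 10 counts of Ttc8. The transition zone ratio of 143, in lactate replicate 2, rests on 18 counts of Cep290. Spread between genes was wider after lactate over the whole transcriptome as well: the SD of log2 FPKM over all genes was 2.91, 2.92 and 2.92 in lactate libraries, against 2.45, 2.42 and 2.45 in control libraries.

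**Figure D4:**
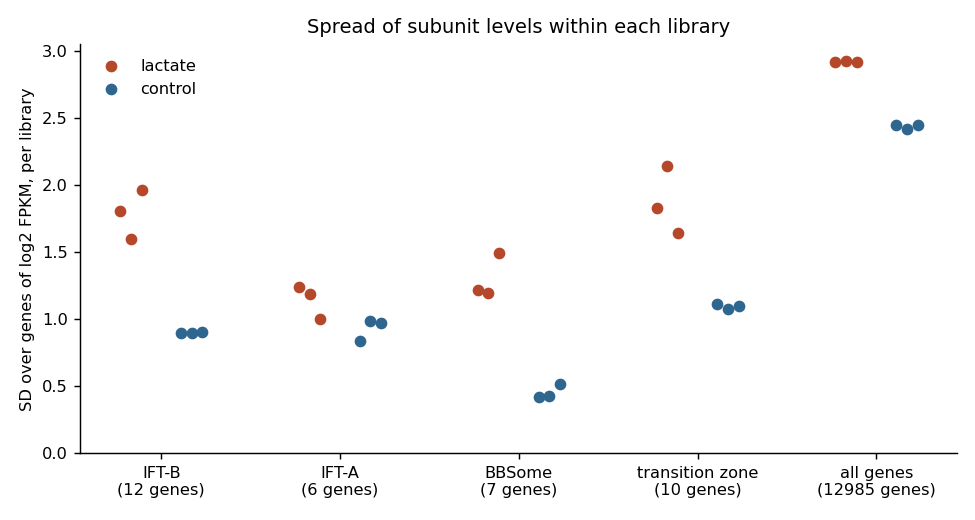
SD over genes of log2 FPKM (vertical axis, log2 units) within each library for IFT-B, IFT-A, the BBSome, the transition zone and all genes with FPKM above 0 in all libraries, one point a library, lactate left of control. Lactate points lie above control points in each group, for IFT-B at 1.60 to 1.96 in lactate libraries, against 0.894 to 0.906 in control libraries.

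Among the 7 Hedgehog members, 6 were tested: 2 fell, 1 rose and 3 were not called (median −0.68). The 33.3% lower is close to the 34.6% of all genes, so the count with TMM factors is no result about these genes as a group. With library totals 5 were lower and 0 higher, where 61.8% and 12.5% of all genes were. Smo, the receptor-like protein that carries the signal into the cell, had 12.2, 13.6 and 10.5 CPM in the lactate libraries, against 28.4, 29.3 and 27.1 CPM in the control libraries (log2 fold change −1.23 ± 0.14, edgeR adjusted p = 7.7e-05). Per length, it was at 2.99 ± 0.303 FPKM in lactate and 13.3 ± 0.519 FPKM in control libraries (SD, n = 3 each), and every alternative kept this fall. Ptch1, the receptor that holds Smo in check and is itself switched on by the pathway, had 26.3, 20.4 and 26.0 CPM in the lactate libraries, against 16.4, 17.2 and 18.3 CPM in the control libraries (log2 fold change 0.48 ± 0.14, edgeR adjusted p = 0.0143). All lactate values of Ptch1 were above the control values on this scale, by less than 1 log2 unit. That direction rests on the scaling: with upper-quartile factors Ptch1 was at 0.33, not called (edgeR adjusted p = 0.0614), and with library totals at −0.37, not called (edgeR adjusted p = 0.0767). Hhip, a decoy receptor that binds ligand and is a further Gli target, had 2, 10 and 4 counts in lactate libraries, against 4, 18 and 4 counts in control libraries, too few to test.

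Of the Gli factors, 1 fell and the others were not called. Gli3, which gives the main repressor form, had 14.5, 13.4 and 13.0 CPM in the lactate libraries, against 20.2, 30.7 and 27.5 CPM in the control libraries (log2 fold change −0.94 ± 0.17, edgeR adjusted p = 0.0013). Gli2, the main activator, had 13.8, 15.0 and 15.2 CPM in the lactate libraries, against 9.87, 11.5 and 13.2 CPM in the control libraries (log2 fold change 0.35 ± 0.15, edgeR adjusted p = 0.0683). It missed the call although its groups did not overlap, passed as higher with RLE factors (0.40, edgeR adjusted p = 0.0446), and passed as lower with library totals (−0.51, edgeR adjusted p = 0.0232). Gli1, which is switched on by the pathway and often read as its output, was near the detection limit with 7, 9 and 8 counts in lactate libraries, against 29, 34 and 19 counts in control libraries. These are 0.317, 0.423 and 0.280 CPM in the lactate libraries, against 0.634, 0.659 and 0.403 CPM in the control libraries (log2 fold change −0.74 ± 0.46, edgeR adjusted p = 0.19), and the groups overlapped. With library totals Gli1 was called at −1.59 (edgeR adjusted p = 0.0108). Gli1 overlaps Arhgap9 in GRCr8, which was not called.

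Sufu, the cytoplasmic inhibitor of Gli factors, had 4.67, 3.25 and 6.92 CPM in the lactate libraries, against 7.92, 8.25 and 6.81 CPM in the control libraries (log2 fold change −0.62 ± 0.27, edgeR adjusted p = 0.0698). Lactate replicate 3 lay within the control range. Without it Sufu passed as lower (−0.92, edgeR adjusted p = 0.00694). Sufu also passed as lower with upper-quartile factors (−0.79, edgeR adjusted p = 0.0241) and with library totals (−1.46, edgeR adjusted p = 0.00278). The pathway's usual readout genes, Gli1, Ptch1 and Hhip, therefore gave 1 rise that depends on scaling, 1 gene not called and 1 gene not tested.

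**Figure D5:**
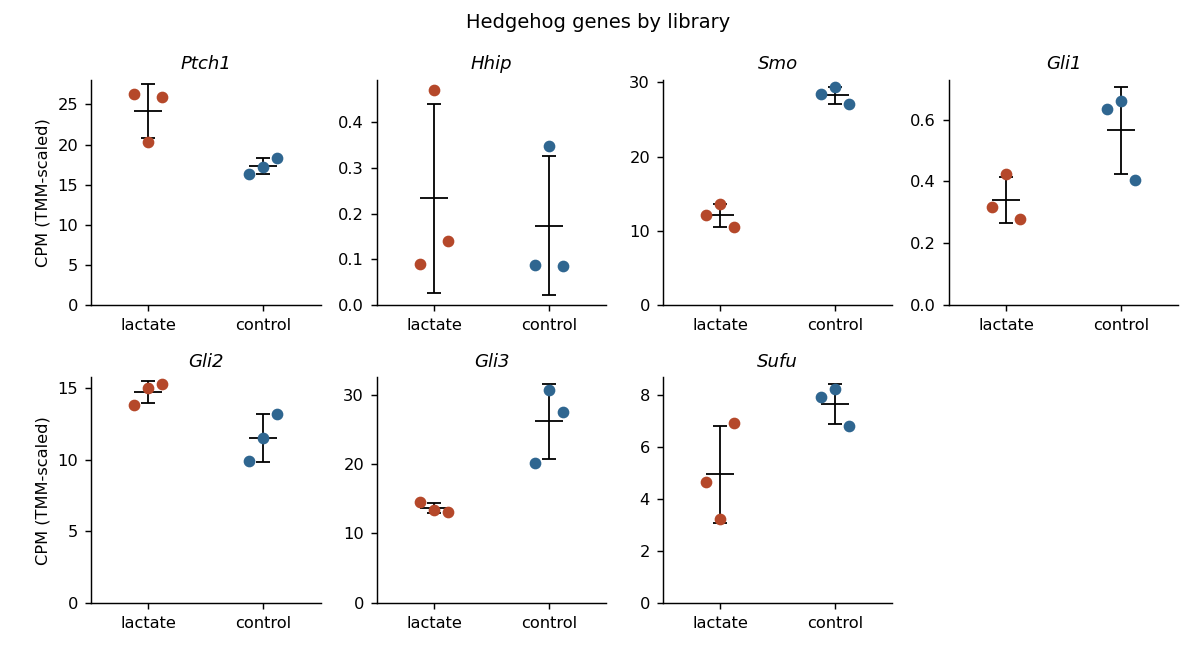
Level in CPM (vertical axis from 0, TMM-scaled) of the 7 Hedgehog members, lactate libraries left of control libraries, one point a library with the mean and SD (n = 3). Smo and Gli3 lie apart with lactate below control, Ptch1 and Gli2 lie apart with lactate above control, and Gli1, Hhip and Sufu overlap.

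Other genes of the Hedgehog pathway, beyond the members, numbered 25 tested, of which 14 fell, 5 rose and 6 were not called (median −0.68), which is 56% lower and 20% higher beside 34.6% and 31.4% of all genes. With library totals 20 fell and 2 rose, beside 61.8% and 12.5% of all genes. Boc, a co-receptor that helps ligand bind, averaged 12.7 ± 0.350 CPM in lactate and 52.3 ± 2.63 CPM in control libraries (log2 fold change −2.04 ± 0.11, edgeR adjusted p = 2.3e-06). Evc, a ciliary partner of Smo, averaged 6.44 ± 1.32 CPM in lactate and 31.9 ± 2.32 CPM in control libraries (log2 fold change −2.31 ± 0.17, edgeR adjusted p = 8.75e-06). Among those that rose were kinases. Gsk3b, which marks Gli proteins for cleavage among many other tasks, averaged 160 ± 5.65 CPM in lactate and 41.0 ± 6.49 CPM in control libraries (log2 fold change 1.96 ± 0.13, edgeR adjusted p = 5.49e-06), and Grk2, a kinase of Smo, averaged 103 ± 8.96 CPM in lactate and 43.1 ± 3.50 CPM in control libraries (log2 fold change 1.25 ± 0.11, edgeR adjusted p = 2.27e-05). Both rises were called with library totals too, at 1.11 and 0.40 (edgeR adjusted p = 0.000141 and 0.0344). Of the ligand genes, Dhh averaged 0 CPM in lactate and 0.0292 CPM in control libraries, and Shh and Ihh were not analysed here.

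Cilium genes outside the members had negative medians in each list, and no rise among them was called as a rise with library totals, where 15, 17 and 23 genes of the lists given next were called lower (61.8% of all genes). Tulp3 and Cep83, called higher with TMM factors, were called lower there, at −0.46 and −0.47 (edgeR adjusted p = 0.0263 and 0.0253). With TMM factors the lists had 55.6%, 42.9% and 51.9% of their tested genes lower, beside 34.6% of all genes. Of 18 tested transport and BBS genes, 10 fell and 2 rose (median −0.59), with Dynll1, a dynein light chain of many complexes, at −0.78 ± 0.12 (edgeR adjusted p = 0.00056), and Hspb11 and Tulp3, which encode an IFT-B subunit and an IFT-A adaptor, at 0.94 ± 0.23 and 0.39 ± 0.13 (edgeR adjusted p = 0.00573 and 0.0242). Of 21 tested further transition zone and nephronophthisis genes, 9 fell and 4 rose (median −0.47). Here Cspp1, a protein of the axoneme, was at −1.45 ± 0.17 (edgeR adjusted p = 0.000102), and Tmem107 and Iqcb1 at 1.12 ± 0.16 and 1.09 ± 0.21 (edgeR adjusted p = 0.000353 and 0.0019). Of 27 tested further basal body genes, 14 fell and 3 rose (median −0.61). Cep131, of the centriolar satellites, was at −2.73 ± 0.18 and Ccp110, a cap that must leave the centriole before a cilium grows, at −2.67 ± 0.18 (edgeR adjusted p = 5.09e-06 and 6.11e-06). Ehd1 and Fuz, both needed for cilium formation, rose, at 0.76 ± 0.11 and 0.64 ± 0.20 (edgeR adjusted p = 0.000432 and 0.0184).

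Most of the tested RFX transcription factor genes were lower as well. Of 5 tested RFX genes, 4 fell and 1 was not called (median −1.35), which is 80% lower beside 34.6% of all genes. With library totals 5 fell, where 61.8% of all genes did. The median length percentile of these RFX genes was 84.2, within the longest bin, where 49.5% of all genes fell with TMM factors. The smallest p belonged to Rfx5, better known for immune genes, and to Rfx7, at −1.98 ± 0.18 and −1.51 ± 0.21 (edgeR adjusted p = 2.67e-05 and 0.000285). Rfx3, a known driver of ciliogenesis, was at −1.35 ± 0.47 (edgeR adjusted p = 0.0318). Of the members whose promoter holds the half-site shown above, 10 were tested, of which 6 fell and 4 were not called. Of the 31 tested members with a promoter that lacks it, 21 fell, 4 rose and 6 were not called.

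Cells were checked against markers. Of the nucleus pulposus and cartilage markers, 9 were tested: 3 rose, 2 fell and 4 were not called. That is 33.3% higher and 22.2% lower, beside 31.4% and 34.6% of all genes. Their summed level was 2488 to 2828 CPM in lactate libraries, against 2563 to 2876 CPM in control libraries. Acan, the proteoglycan of disc and cartilage, was at −0.06 ± 0.10, not called, Sox9 and Cd24 rose (1.45 and 2.32), and Foxa2 and Pax1 fell (−1.97 and −0.88). With library totals Cd24 was still called higher (1.46, edgeR adjusted p = 1.8e-05), and Sox9 was not called (0.56, edgeR adjusted p = 0.0667). Acan was called lower there (−0.92, edgeR adjusted p = 6.93e-05). The notochord marker Tbxt and Krt19 were at 0 in all lactate libraries and averaged 0.0833 and 0.0619 CPM in control libraries. Col2a1, the main collagen of cartilage, averaged 0.747 CPM in lactate and 0.280 CPM in control libraries. Acan made up most of the marker sum. Tbxt, Krt19 and Col2a1 were at or near 0, which goes against a full set of markers for the labelled cell type. Other markers were detected: Cd24 averaged 146 CPM in lactate and 29.2 CPM in control libraries. Foxf1 averaged 44.0 CPM in lactate and 41.3 CPM in control libraries, and Krt8 5.57 CPM in lactate and 7.04 CPM in control libraries. Motile cilium markers summed to 1.51 to 2.77 CPM in lactate libraries, against 3.20 to 4.88 CPM in control libraries, and of the 4 tested 1 fell (Ccdc39, −1.22 ± 0.37, edgeR adjusted p = 0.0175), beside 34.6% of all genes. They are at or near 0, with Dnah5 at 0 in all lactate libraries.

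Markers of other cells moved in part. Of 6 tested annulus and fibroblast markers 3 rose and 2 fell, which is 50% higher and 33.3% lower beside 31.4% and 34.6% of all genes. Their sum, most of it collagen mRNA, was 107132 to 155708 CPM in lactate libraries, against 32643 to 38047 CPM in control libraries. Col1a1 and Thy1 rose (1.97 and 1.24), also with library totals, and Mkx and Pdgfra fell (−2.36 and −1.42). Of 6 smooth muscle and pericyte markers 3 rose and 2 fell, again 50% higher and 33.3% lower, with a sum of 1892 to 2329 CPM in lactate libraries, against 1542 to 1908 CPM in control libraries. In both sets the share lower is close to that of all genes, so the count of falls is no result about these markers. Des and Tagln rose (1.99 and 0.61), of which Tagln was lower with library totals (−0.25, edgeR adjusted p = 0.0385), and Pdgfrb and Myh11 fell (−1.27 and −1.17). Macrophage markers summed to 4.19 to 5.40 CPM in lactate libraries, against 9.65 to 10.7 CPM in control libraries, with Cd68 at 1.48 ± 0.40 and Cd14 at −1.72 ± 0.20, both called, where 66% of all genes were. With library totals Cd68 was not called (0.64, edgeR adjusted p = 0.195), and Cd14 was still lower (−2.58, edgeR adjusted p = 8.05e-06). Endothelial markers summed to under 1 CPM in every library, and the 1 tested was not called. The part of cell make-up in the members' fall was not tested.

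The authors' own comparison covers all 54 members with a row. For 35 members the authors' deposited table has an adjusted p under 0.05 with a negative fold change, and for 4 with a positive one, where 28% and 23.6% of all 17273 genes do. Of the 54 members with an entry in the GRCr8 annotation, 11 overlap another protein-coding gene, and without a stated use of strand their counts are uncertain.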

How the data were processed

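The authors deposited, per the file headers, raw read counts and FPKM (counts per transcript length and library size) of each gene for 3 lactate and 3 control libraries, with their own log2 fold changes, p-values and adjusted p-values. The aligner, the counter, the annotation and the strand setting were not given in the sources used here. Mouse builds (GRCm38, mm10) are named in the submitters' processing notes although the genes carry rat names, so coordinates and sequences printed here come from RefSeq on GRCr8 and not from the authors' alignment. The filterByExpr function kept 13747 of 17273 genes, which were tested by edgeR's quasi-likelihood method (edgeR 4.0.16, R 4.3.3) after TMM scaling, with no covariate. Calls required a Benjamini-Hochberg p under 0.05 over all genes tested. Fold changes divide lactate by control, on a log2 scale, with their SE. Libraries held 30576461, 30291357 and 35512356 counts (lactate replicates 1, 2 and 3) and 33584741, 38989574 and 34808082 counts (control replicates 1, 2 and 3). A count of 3, the limit that 0 counts allow, was 0.105 to 0.141 CPM in lactate and 0.0581 to 0.0656 CPM in control libraries, for counting error only. Replicates of a group differed by more than sampling noise.

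The 56 members, the other gene lists and the alternatives were chosen with earlier results of these data known, and no list was tested as a set. Values by library are given for every Hedgehog member and, in each class, for up to 3 called members with the smallest p in each direction. From each other list the 2 called genes with the smallest p in each direction are named, with a few more named after their values were seen, and 1 gene is not reported here. Relative transcript length was the ratio of deposited counts to FPKM, and trends of fold change on length and on level were loess curves (span 0.3). As 18 alternatives, results were recomputed with RLE factors, upper-quartile factors, library totals, 2 other filters (none, and at least 10 counts in every library of a group), DESeq2 1.42.0, limma-voom and limma-trend (limma 3.58.1) on log2(FPKM + 1) and log2(FPKM + 0.1), a replicate block, removal of the length trend and of both trends, and each library left out. On log2(FPKM + pseudocount) the change of low genes is understated. The edgeR fit, its replicate block, limma-voom, limma-trend and DESeq2 were tested on simulated data.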

Additional observations from a re-analysis of the deposited data

How the results depend on the processing

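The direction of the members as a group held under all 18 alternatives, while its size and the count of rises did not. The median log2 fold change was −0.91 with RLE factors, −1.11 with upper-quartile factors, −1.81 with library totals, −0.91 with DESeq2, −1.25 on log2(FPKM + 1), −1.75 on log2(FPKM + 0.1), −0.71 with the length trend removed and −0.50 with both trends removed. With 1 library left out it ranged from −0.99 to −0.88, with 30 to 37 members lower and 4 to 7 higher. All genes then gave 29.4% to 35% lower and 28.2% to 32% higher. Over the other alternatives lower calls numbered from 28 with both trends removed (all genes 33.4%) to 48 on log2(FPKM + 1) (all genes 63.7%). All 36 lower calls with TMM factors were among those called with library totals, a scaling that moves all genes down. Higher calls numbered 3 with upper-quartile factors (all genes 27.5%), 0 with library totals (12.5%), 0 on either FPKM scale (13% and 12.9%) and 8 with both trends removed (25.8%). Scaling moved the median of all genes from −0.10 (TMM) to −0.96 (library totals), and the share of higher among all calls from 47.6% to 16.9%.

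Directions turned for 5 of the genes given by library. With library totals Ptch1 was at −0.37, Gli2 at −0.51 and Ift20 at −0.49. On log2(FPKM + 1) they were at −0.28, −0.34 and −0.47, and on log2(FPKM + 0.1) at −0.36, −0.49 and −0.50. With both trends removed Ift20 was at −0.029, Gli1 at 0.48 and Dync2h1 at 0.51, and with the length trend alone Dync2h1 was at 0.22. The cause was not tested, beyond the scaling or trend each alternative changes.

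Replicate numbers did not pair the libraries. The correlations of same-numbered libraries' deviations were 0.008, 0.038 and 0.084, and not every library correlated best with its own number. The replicate block gave 35 members lower and 5 higher with a median of −0.95, where 33.6% and 30.5% of all genes were lower and higher. Depth limits Bbs12, Gli1 and Hhip, whose counts after lactate were few, Tctn3 rests on 1 library, and transcripts that share reads with a copy or an overlapping gene are uncertain.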

Other observations

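Some other Hedgehog pathway genes were lower beyond Smo, in a description of genes chosen after their values were seen. Of the 25 tested in that list 14 fell and 5 rose, Gsk3b and Grk2 among the rises. That is 56% lower and 20% higher, beside 34.6% and 31.4% of all genes. Gas1, a co-receptor tethered to the membrane, had 1.54, 1.88 and 1.26 CPM in the lactate libraries, against 9.19, 10.5 and 9.27 CPM in the control libraries, which is −2.63 ± 0.22 on the log2 scale (edgeR adjusted p = 1.41e-05). Gpr161, a ciliary receptor that keeps the pathway off through cyclic AMP, had 1.27, 1.03 and 0.629 CPM in the lactate libraries, against 3.94, 4.79 and 4.22 CPM in the control libraries, which is −2.15 ± 0.31 on the log2 scale (edgeR adjusted p = 0.0003). Iqce, which ties Evc to the base of the cilium, had 1.36, 0.894 and 1.19 CPM in the lactate libraries, against 6.67, 10.2 and 8.70 CPM in the control libraries, which is −2.89 ± 0.26 on the log2 scale (edgeR adjusted p = 2.39e-05). Both a helper of the signal (Gas1) and a brake on it (Gpr161) were thus lower in every lactate library. Disp1, needed to release ligand, was at −1.58 ± 0.19 on the log2 scale (edgeR adjusted p = 0.0001), and the co-receptor Cdon at −0.68 ± 0.14 on the log2 scale (edgeR adjusted p = 0.00291).

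Among Rab GTPases of the ciliogenesis list, also chosen after their values were seen, Rab8a and Rab23 fell and Rab11a was not called. Rab8a, which brings membrane to the growing cilium, had 7.57, 6.40 and 13.9 CPM in the lactate libraries, against 39.2, 44.5 and 48.3 CPM in the control libraries, which is −2.23 ± 0.27 on the log2 scale (edgeR adjusted p = 0.000123). Rab23, a brake on Hedgehog signalling in mouse, had 16.6, 15.5 and 20.4 CPM in the lactate libraries, against 58.2, 60.5 and 59.3 CPM in the control libraries, which is −1.76 ± 0.13 on the log2 scale (edgeR adjusted p = 7.64e-06). No lactate library reached the control range in either gene. Rab11a, of recycling vesicles, was at 0.13 ± 0.10 on the log2 scale (edgeR adjusted p = 0.271).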
